A study of Homo sapiens with 12 samples.

Results

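The effect of CT83 was measured as a main effect over 12 RNA-sequencing libraries of HMLE-derived cells, comparing the 6 libraries with a CT83 transgene with the 6 without it. The members were chosen by construct alone: 3 libraries of the HORMAD1_CT83 line and 3 of the CT83 line on one side, 3 of the HORMAD1 line and 3 of the Control line on the other. HORMAD1 status entered as the second factor, so that the main effect is the average of a contrast without HORMAD1 (CT83 line over Control line) and a contrast with HORMAD1 (HORMAD1_CT83 line over HORMAD1 line). These contrasts share no library, and a gene counted as shifted in both when its 3 libraries with CT83 lay beyond its 3 libraries without CT83 in the same direction in each background.

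HMLE cells are human mammary epithelial cells that telomerase and SV40 antigens have made immortal. The HORMAD1_CT83 line carries both transgenes, the CT83 line carries CT83, the HORMAD1 line carries HORMAD1, and the Control line carries a control construct. All 4 lines share the HMLE background and the puromycin resistance gene used to select them. There is 1 line per construct, so an effect of the transgene and a difference between lines cannot be told apart. The labels do not say that the 3 samples of a line came from separate cultures, and p-values then cover only the spread among these libraries, part of which may be technical.

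CT83, also called KK-LC-1, lies on the X chromosome and belongs to the cancer/testis genes, transcribed in testis and silent in most other adult tissues but switched on in a share of lung, gastric and breast tumours. Its protein is known as a tumour antigen recognised by T cells, and less is known of what it does inside a cell. HORMAD1 is another cancer/testis gene, and its protein sits on the axis of meiotic chromosomes.

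CT83 itself stood at 0 counts in all 6 libraries without the transgene. It had 86.7, 101 and 118 CPM (counts scaled to the size of the library, with TMM factors) in HORMAD1_CT83 libraries and 400, 446 and 724 CPM in CT83 libraries. The 3 libraries of the HORMAD1_CT83 line were thus all below the 3 of the CT83 line, and the mean of the HORMAD1_CT83 line was 19.5% of the mean of the CT83 line. A floor of 3 counts amounted to 0.202 to 0.289 CPM in the libraries without CT83, so that CT83 was at least 352-fold higher in the HORMAD1_CT83 line and at least 1809-fold higher in the CT83 line. HORMAD1 had 283, 313 and 347 CPM in HORMAD1_CT83 libraries and 203, 332 and 335 CPM in HORMAD1 libraries, with 0 counts in all other libraries. The 2 contrasts that make up the main effect therefore differ in the level of CT83 as well as in HORMAD1.

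Total counts ran from 9898845 to 14159740 per library. Keratin 5, keratin 14, p63, E-cadherin, EPCAM, keratin 8 and keratin 18, the 7 epithelial markers, all had counts in all 12 libraries and summed to 6606 to 7570 CPM with CT83 and to 6271 to 8107 CPM without it. Endothelial and leukocyte markers each summed to at most 2.2 CPM in any library, with PTPRC and CD3E at 0 in 11 of 12. The 7 fibroblast markers summed to 29.1 to 89.7 CPM with CT83 and to 26.9 to 74.4 CPM without it, with LUM at 0 in 5 libraries and DCN at 0 in 3.

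Of 15616 genes tested, edgeR's quasi-likelihood test (Benjamini-Hochberg adjusted p under 0.05) called 1 gene higher with CT83 (0.0064% of the genes tested), CT83 itself (adjusted p = 0.00782), and 4 genes lower (0.0256%). The 4 that fell were CPVL, AIF1L, C15orf48 and the antisense gene ENSG00000259342.1. CPVL encodes a serine carboxypeptidase-like protein first described in macrophages. AIF1L encodes an actin-bundling relative of the allograft inflammatory factor. C15orf48 encodes a small mitochondrial protein related to a subunit of cytochrome c oxidase, and its transcript also hosts the microRNA miR-147b. All 4 were genes of low level, with a mean with CT83 at 39.1% to 53.5% of the mean without it.

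CPVL (ENSG00000106066.15) lies on chromosome 7 at 28995231 to 29195451 of GRCh38, on the minus strand. It had 2.31, 1.64 and 2.30 CPM in CT83 libraries and 3.72, 4.81 and 3.54 CPM in Control libraries. In the HORMAD1 background it had 0.887, 1.40 and 0.604 CPM in HORMAD1_CT83 libraries and 3.51, 3.76 and 4.04 CPM in HORMAD1 libraries. Every library with CT83 was thus below every library without it, and the 3 HORMAD1_CT83 libraries were the lowest of the 12. The main effect was a log2 fold change of -1.44 (SE 0.20, 95% interval -1.83 to -1.05, adjusted p = 0.0136 by edgeR's quasi-likelihood test). These values rest on few reads, 10, 16 and 6 counts in the HORMAD1_CT83 libraries and 52, 39 and 46 counts in the HORMAD1 libraries.

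On chromosome 15, the called C15orf48 (ENSG00000166920.13, plus strand, 45430529 to 45448761) and ENSG00000259342.1 (minus strand, 45430652 to 45441808) cover the same ground. The antisense gene lies whole within C15orf48 over 11157 bases. Whether the counting used strand is not given in the sources used here, so reads of one gene may be counted in the other, and both calls are uncertain: 1 change and 2 changes cannot be told apart. The start regions of CPVL and C15orf48 are shown because 3 of the 4 lower calls lie at these 2 places in the genome, with the microRNA that C15orf48 hosts. The promoter windows, from 250 bases before to 50 bases after the start, are those of RefSeq on GRCh38.p14, where C15orf48 is listed as COXFA4L3. They were searched on both strands for an AP-1 motif (TGANTCA), a TEAD motif (GGAATG) and the NF-kB motif, whose matches may overlap each other. A match would be in capitals.
CPVL promoter, chr7:29195218-29195517, minus strand: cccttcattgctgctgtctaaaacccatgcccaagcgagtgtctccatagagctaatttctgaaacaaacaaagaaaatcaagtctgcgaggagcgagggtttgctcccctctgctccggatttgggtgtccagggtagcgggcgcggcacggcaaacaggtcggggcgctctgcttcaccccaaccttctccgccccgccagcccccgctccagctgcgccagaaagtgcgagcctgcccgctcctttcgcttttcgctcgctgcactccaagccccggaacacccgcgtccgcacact
C15orf48 promoter, chr15:45430360-45430659, plus strand: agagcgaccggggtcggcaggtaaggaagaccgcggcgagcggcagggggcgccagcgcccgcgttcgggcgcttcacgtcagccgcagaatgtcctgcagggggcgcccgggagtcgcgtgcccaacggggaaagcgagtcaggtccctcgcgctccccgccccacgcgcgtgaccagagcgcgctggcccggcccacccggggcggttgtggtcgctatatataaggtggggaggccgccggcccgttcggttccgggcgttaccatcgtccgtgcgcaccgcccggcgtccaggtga
miR-147b-3p, chr15:45433098-45433118, plus strand, with its seed (bases 2 to 8) in capitals: gUGUGCGGaaaugcuucugcu
Neither window held any of the 3 motifs, which 7.71% (AP-1), 14.03% (TEAD) and 5.91% (NF-kB) of 35116 promoters of the same length hold on either strand. The absence of a match says only that these letters are not in these windows. The microRNA was not measured here: its precursor had 0 counts in all libraries.

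C15orf48 had 4.46, 4.41 and 3.35 CPM in CT83 libraries and 4.17, 7.87 and 5.81 CPM in Control libraries. It had 3.37, 2.72 and 2.11 CPM in HORMAD1_CT83 libraries and 8.63, 8.68 and 10.97 CPM in HORMAD1 libraries. The groups overlapped without HORMAD1, where Control replicate 1 lay between the CT83 libraries, and lay well apart with HORMAD1. The main effect was -1.16 on the log2 scale (SE 0.17, adjusted p = 0.0236 by edgeR), made of -0.54 without HORMAD1 and -1.77 with it. ENSG00000259342.1 had 4.71, 5.71 and 4.49 CPM in CT83 libraries against 7.58, 10.2 and 9.44 CPM in Control libraries, and 4.44, 3.33 and 3.83 CPM in HORMAD1_CT83 libraries against 8.29, 10.03 and 14.6 CPM in HORMAD1 libraries. Here all 6 libraries with CT83 were below all 6 without, and the main effect was -1.18 (SE 0.16, adjusted p = 0.0130 by edgeR).

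AIF1L (ENSG00000126878.13, chromosome 9, 131096476 to 131123152, plus strand) had 7.63, 6.83 and 8.61 CPM in CT83 libraries and 10.6, 12.1 and 7.84 CPM in Control libraries. It had 4.79, 3.16 and 4.53 CPM in HORMAD1_CT83 libraries and 10.9, 12.9 and 12.1 CPM in HORMAD1 libraries. As for C15orf48, the groups overlapped without HORMAD1 and were apart with it. The main effect was -0.96 (SE 0.14, adjusted p = 0.0165 by edgeR), made of -0.40 without HORMAD1 and -1.52 with it.

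**Figure D1:**
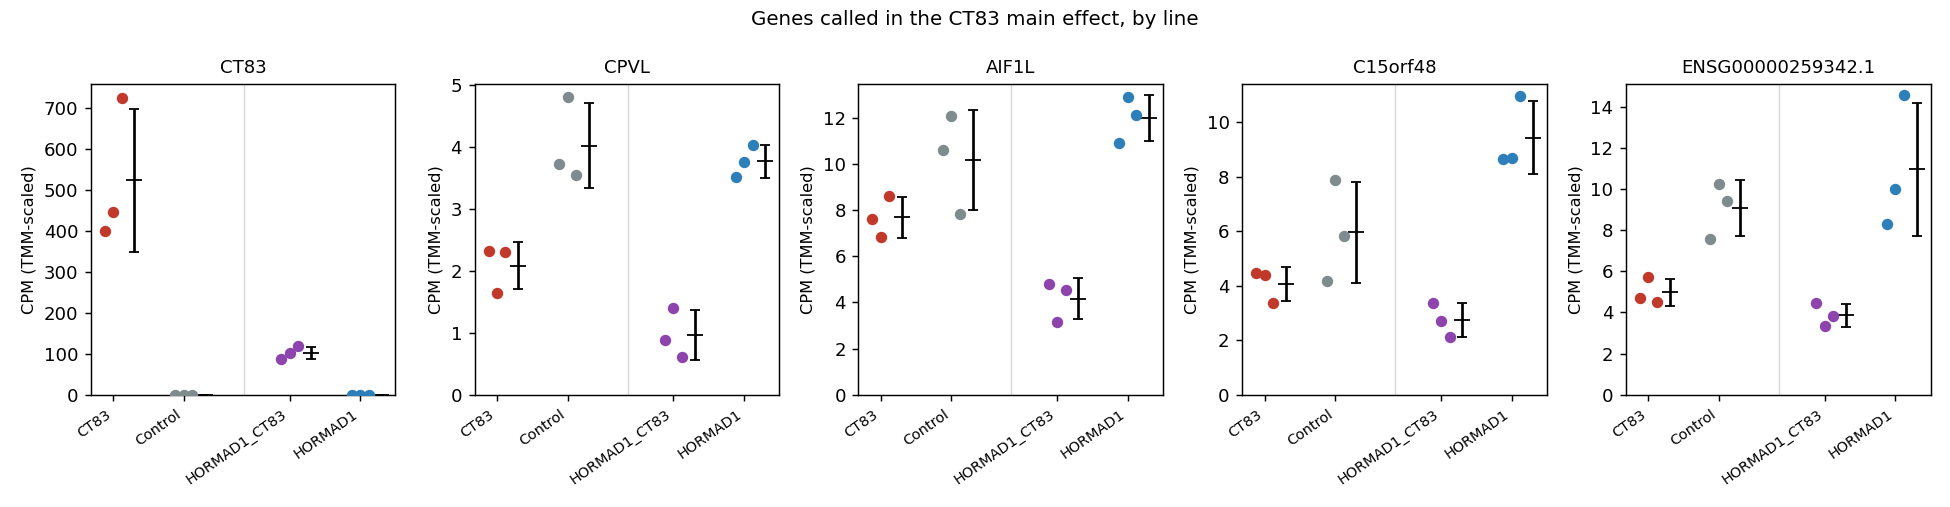
Level of the 5 called genes in CPM (TMM-scaled, axis from 0) in each library, with the lines CT83 and Control at left and HORMAD1_CT83 and HORMAD1 at right. Points are libraries and the mark beside them is the mean with its SD (n = 3). CPVL and ENSG00000259342.1 show no overlap in either background, while C15orf48 and AIF1L overlap between the CT83 and Control lines.

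The 4 lower calls differed in what they survived. With 1 mean for CT83 status and 1 for HORMAD1 status in place of 1 mean per line, an additive model, ENSG00000259342.1 was called and the adjusted p was 0.0791 for CPVL and 0.232 for both AIF1L and C15orf48. Leaving out 1 library at a time, ENSG00000259342.1 was called in 8 of 12 fits (lost without Control replicate 2, CT83 replicate 1 and HORMAD1_CT83 replicates 2 and 3) and CPVL in 7 of 12 (lost without Control replicate 2, CT83 replicates 1 and 2 and HORMAD1_CT83 replicates 1 and 3). AIF1L and C15orf48 were called in 4 of 12 each. Both were lost without Control replicate 2, CT83 replicates 1 and 2, HORMAD1 replicates 2 and 3 and HORMAD1_CT83 replicates 2 and 3; in addition AIF1L was lost without Control replicate 1 and C15orf48 without Control replicate 3. The highest adjusted p in these fits was 0.0663 for ENSG00000259342.1, 0.0746 for CPVL, 0.0885 for AIF1L and 0.139 for C15orf48, and all 4 log2 fold changes stayed below -0.88. CT83 itself was lost without HORMAD1_CT83 replicate 2 (adjusted p = 0.0608) and without HORMAD1_CT83 replicate 3 (0.0594).

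In the fit of all 12 libraries, the contrast without HORMAD1 called 1 gene, CT83 (0.0064%), and the contrast with HORMAD1 called 7, of which 1 was higher and 6 lower (0.0448%). The 4 genes that fell in the main effect were among those 6, with B4GALT5 (log2 fold change -0.43, adjusted p = 0.0449 by edgeR) and ENSG00000288528.1, which had a log2 fold change of 0.06 without HORMAD1 and -0.77 with it and is named here after its values were seen. In the contrast without HORMAD1 these 4 genes all had log2 fold changes below 0, from -0.94 for CPVL to -0.40 for AIF1L, with an adjusted p of 0.984 each. Fits by edgeR of only the 6 libraries of a background called 0 genes without HORMAD1 and 1 with it. The 7 calls with HORMAD1 became 62 by DESeq2 and 99 by edgeR with no filter on low counts. With 1 library left out they ran from 0, reached without HORMAD1 replicate 2 or 3 or any 1 of the HORMAD1_CT83 replicates, to 39 without HORMAD1 replicate 1. The difference between the 2 contrasts, the interaction, was called for no gene (0%) at an adjusted p under 0.05 by edgeR. DESeq2 called it for 3 genes. An unadjusted p under 0.05 by edgeR was reached by 703 genes, 4.50% of the 15616 tested. That share is below what the threshold lets through with no interaction at all. AIF1L and C15orf48 were among those 703 (unadjusted p = 0.00103 and 0.00290), each with an adjusted p of 0.84 for the interaction.

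At an unadjusted p under 0.05, 463 genes were higher with CT83 (2.96%) and 506 lower (3.24%), which together is 6.21% of the genes tested. Over all tested genes, 50.3% had a main-effect log2 fold change below 0, and 45.6% had 1 sign in both backgrounds, with 23% below 0 in both. The 2 contrasts had a Pearson r of 0.04 and a Spearman rho of -0.11 across the 15616 genes, and a Pearson r of -0.13 with the transgenes left out. Genes are not independent replicates, and all points of 1 contrast share the same 6 libraries. For genes of mean log2 CPM of at least 1, the SD of the log2 fold change was 0.19 without HORMAD1 and 0.24 with it.

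Without overlap of libraries in either background, 50 genes were higher with CT83 in both (0.32%) and 71 lower in both (0.455%). With CT83 status shuffled within backgrounds (400 arrangements), the pattern in either direction has a probability of 0.005 for a gene. Lack of overlap alone thus does not show that a gene is shifted. Among those with a gene symbol and a mean log2 CPM of at least 1, the 12 higher and 12 lower with the smallest p were named by rule, which leaves out ENSG00000259342.1, described above, for want of a symbol. Apart from CT83 and CPVL their adjusted p lay between 0.115 and 0.355, so that none passed the test.

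Among the higher ones, LARGE2, a glycosyltransferase that extends the sugar chains of alpha-dystroglycan, had a log2 fold change of 0.66 (SE 0.14), nearly the same without HORMAD1 (0.65) and with it (0.67). PGAP4, which adds a sugar to GPI anchors, had 0.64 (SE 0.13), and MCTP1, a membrane protein with calcium-binding C2 domains, had 0.60 (SE 0.12). TLL1, a secreted metalloproteinase of the tolloid family, had 0.51 (SE 0.13). PDPN, the membrane glycoprotein podoplanin, had 0.36 (SE 0.10) and CA12, a membrane carbonic anhydrase, 0.34 (SE 0.08). The remaining higher genes had smaller values: CSRP2, a LIM-domain protein of the cytoskeleton, had 0.29, NT5C, a cytosolic nucleotidase, 0.28, SEC22B, a SNARE of traffic between endoplasmic reticulum and Golgi, 0.28, and VMP1, an endoplasmic reticulum protein of autophagy, 0.22.

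Among the lower ones, B4GALT5 and UGCG act in consecutive steps of glycosphingolipid synthesis, UGCG making glucosylceramide and B4GALT5 lactosylceramide from it. B4GALT5 had 115, 119 and 124 CPM in CT83 libraries and 127, 132 and 134 CPM in Control libraries, and 113, 115 and 117 CPM in HORMAD1_CT83 libraries and 149, 151 and 165 CPM in HORMAD1 libraries. Its libraries with CT83 all lay below those without (log2 fold change -0.28, SE 0.05, adjusted p = 0.115 by edgeR). UGCG also had -0.28 (SE 0.07, adjusted p = 0.25).

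IL32, a cytokine, had 18.7, 20.4 and 21.1 CPM in CT83 libraries and 23.8, 25.6 and 28.1 CPM in Control libraries, and 14.6, 17.4 and 18.2 CPM in HORMAD1_CT83 libraries and 22.1, 30.3 and 31.7 CPM in HORMAD1 libraries, a log2 fold change of -0.55 (SE 0.10, adjusted p = 0.133 by edgeR). Its 6 libraries with CT83 lay below all 6 without. HTR1D, a serotonin receptor, had the largest difference of the 11 lower genes named by rule that were not called (-0.96, SE 0.20), at 2.35 ± 1.05 CPM in the HORMAD1_CT83 line and 5.13 ± 0.88 CPM in the HORMAD1 line (SD, n = 3 each). CPB2-AS1 had -0.62 (SE 0.15) and may share reads with the gene it is antisense to. DDAH1, which degrades dimethylarginine, had -0.48, NMU, the peptide neuromedin U, -0.42, and E2F2, a cell-cycle transcription factor, -0.42. CLDN4, a claudin of tight junctions, had -0.38, ERRFI1, a feedback inhibitor of the EGF receptor, -0.31, and PDLIM5, which binds actin-associated alpha-actinin, -0.26.

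**Figure D2:**
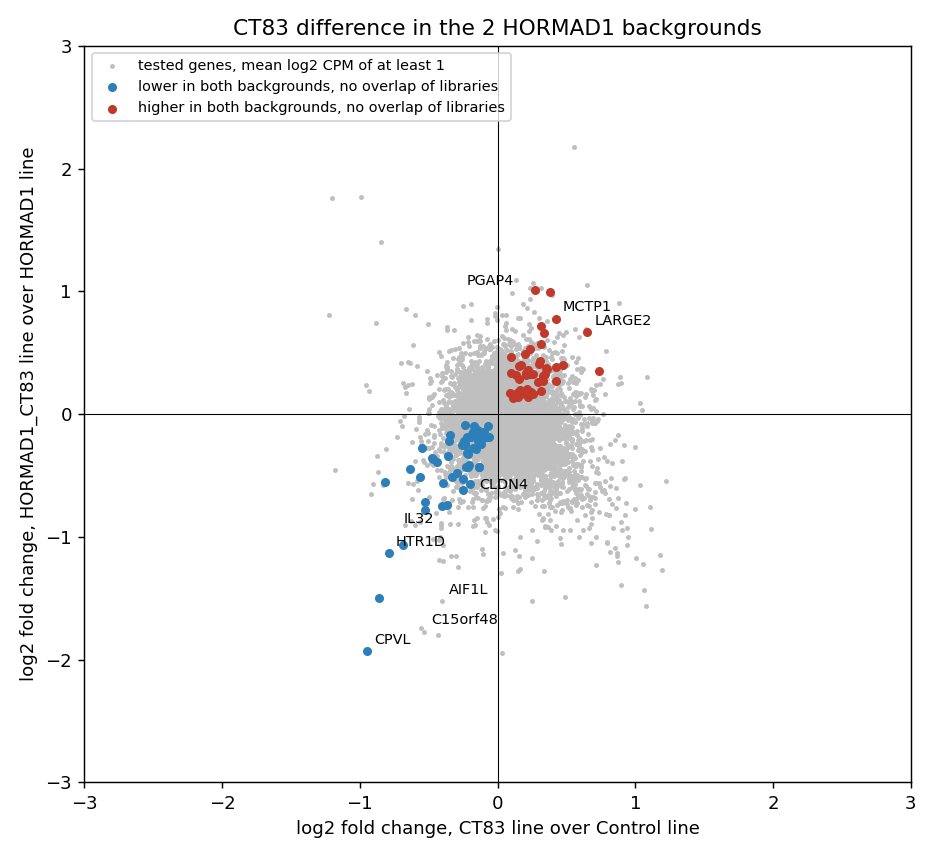
Log2 fold change of each tested gene with a mean log2 CPM of at least 1, without the 2 transgenes, in the contrast without HORMAD1 (horizontal) and with HORMAD1 (vertical). Blue and red points are the genes lower or higher in both backgrounds with no overlap of libraries. CPVL stands lowest among the named genes, at -0.94 and -1.93, and the cloud of all genes spreads over all 4 quadrants.

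Described by list, the members of 39 gene lists held 1 called gene, AIF1L. Of the 37 lists with at least 5 members tested, 27 had a median log2 fold change below 0, and 17 had a median below 0 in both contrasts. Over all 15616 genes the median was -0.001, and 50.3% lay below 0, with 23% below 0 in both backgrounds. Leaving AIF1L aside, no member of any list passed the test, and the lists are given by their counts and medians.

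Of 13 luminal keratins and regulators, 12 lay below 0, and 7 lay below 0 in both backgrounds. The median was -0.26, -0.12 without HORMAD1 and -0.34 with it. KRT8 and KRT18, the paired keratins of simple epithelium, had log2 fold changes of -0.31 (SE 0.08, adjusted p = 0.308 by edgeR) and -0.26 (SE 0.07). CD24, a surface glycoprotein of luminal cells, had -0.39 and GATA3, a luminal transcription factor, -0.35. KRT8 had 1866 to 1981 CPM in CT83 libraries and 2266 to 2611 CPM in Control libraries, and 1766 to 2109 CPM in HORMAD1_CT83 libraries and 1949 to 2659 CPM in HORMAD1 libraries. It overlapped in the HORMAD1 background, where HORMAD1 replicate 1 was low.

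Of 38 genes of epithelial junctions, 33 lay below 0, and 23 lay below 0 in both backgrounds. The median was -0.08, -0.05 without HORMAD1 and -0.15 with it. CDH1, E-cadherin, had -0.28 (SE 0.07) and OCLN, occludin of the tight junction, -0.39 (SE 0.10), each with an adjusted p of 0.316 by edgeR. OCLN had no overlap in either background, with its libraries with CT83 the lower ones, at 22.1 to 26.01 CPM in CT83 libraries and 27.6 to 29.95 CPM in Control libraries, and 19.96 to 24.2 CPM in HORMAD1_CT83 libraries and 25.4 to 39.2 CPM in HORMAD1 libraries. Of 24 basal and myoepithelial genes, 13 lay below 0, with a median of -0.02. Of its keratins, KRT14 had a log2 fold change of 0.34 (SE 0.16, adjusted p = 0.84 by edgeR), KRT15 of 0.24 (SE 0.08), KRT5 of 0.02 (SE 0.07) and KRT17 of -0.12 (SE 0.10), none past the test.

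Of 23 targets of YAP/TAZ and TEAD, the transcription factors governed by Hippo signalling, 22 lay below 0, and 11 in both backgrounds. The median was -0.12, -0.08 without HORMAD1 and -0.24 with it. Of 20 Hippo components, 17 lay below 0, and 12 in both backgrounds. CCN1, a secreted matricellular target, had 141 to 206 CPM in CT83 libraries and 181 to 201 CPM in Control libraries, and 130 to 188 CPM in HORMAD1_CT83 libraries and 217 to 309 CPM in HORMAD1 libraries. Its groups overlapped without HORMAD1, where CT83 replicate 3 had the highest level, and its log2 fold change was -0.45 (SE 0.13, adjusted p = 0.428 by edgeR). YAP1 itself had -0.16 (SE 0.07).

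Of 21 contractile and actin-binding genes, 16 lay below 0, and 9 in both backgrounds, with a median of -0.12. AIF1L was the 1 that fell, while TAGLN, transgelin of the actin cytoskeleton, had -0.82 (SE 0.21, adjusted p = 0.347 by edgeR) and MYL9, a myosin light chain, -0.74 (SE 0.17, adjusted p = 0.241). TAGLN had 5.999, 5.97 and 13.01 CPM in CT83 libraries and 17.6, 19.8 and 18.8 CPM in Control libraries, and 8.70, 10.7 and 16.01 CPM in HORMAD1_CT83 libraries and 12.8, 16.97 and 18.9 CPM in HORMAD1 libraries. Without HORMAD1 its libraries did not overlap, and with HORMAD1 they did.

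Of 24 NF-kB and inflammatory genes, 19 lay below 0, and 12 in both backgrounds. The median was -0.14, which was -0.02 without HORMAD1 and -0.35 with it. TNFAIP3, an inhibitor of NF-kB signalling, had -0.39 (SE 0.08, adjusted p = 0.193 by edgeR). PTGS2, cyclooxygenase 2, had -0.66 (SE 0.15) and BIRC3, an inhibitor of apoptosis, -0.35 (SE 0.08), -0.05 without HORMAD1 and -0.64 with it. The list was nearly at 0 in the contrast without HORMAD1, and the difference between the contrasts was not called for any of these genes.

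In other lists, of 34 mitosis genes 28 lay below 0 (median -0.08), of 27 Wnt genes 20 (median -0.06), of 17 antigen presentation genes 15 (median -0.07) and of 19 immediate early genes 16 (median -0.08). Below 0 in both backgrounds lay 19 mitosis, 12 Wnt, 5 antigen presentation and 6 immediate early genes. The immediate early median was 0.04 without HORMAD1 and -0.25 with it. Above 0 lay 12 of 19 replication-dependent histone genes (median 0.10, -0.03 without HORMAD1 and 0.16 with it), 63 of 71 cytosolic ribosomal protein genes (median 0.04, -0.04 without HORMAD1 and 0.12 with it) and 29 of 36 oxidative phosphorylation genes (median 0.04). Above 0 in both backgrounds lay 7 histone, 16 ribosomal protein and 14 oxidative phosphorylation genes, beside 3541 of all 15616 genes. Of 24 NRF2 targets 17 lay above 0, among them AKR1C1 (0.50, SE 0.15, adjusted p = 0.432 by edgeR) and AKR1C2 (0.56, SE 0.17), paralogous aldo-keto reductases whose reads are hard to tell apart. In both backgrounds 9 of the NRF2 targets lay above 0. The NRF2 median was -0.0027 without HORMAD1 and 0.09 with it. The oxidative phosphorylation median was -0.0090 without HORMAD1 and 0.10 with it. Of 37 cancer/testis genes other than the transgenes none was tested, all being under the filter on low counts.

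Mesenchymal genes had opposite medians in the 2 backgrounds, -0.22 without HORMAD1 and 0.26 with it, which cancel in the main effect (0.02, with 13 of 27 below 0). COL1A1, fibrillar collagen of mesenchymal cells, had 8.83, 11.1 and 23.6 CPM in CT83 libraries and 19.8, 14.8 and 43.4 CPM in Control libraries, and 12.4, 21.05 and 60.5 CPM in HORMAD1_CT83 libraries and 23.1, 5.40 and 6.06 CPM in HORMAD1 libraries. It varied several-fold within a line, and the groups overlapped in both backgrounds. The sum of the fibroblast markers was 29.1 to 45.1 CPM in CT83 libraries and 41.4 to 74.4 CPM in Control libraries, and 38.9 to 89.7 CPM in HORMAD1_CT83 libraries and 26.9 to 47.6 CPM in HORMAD1 libraries. In bulk RNA, fewer cells of a type and less RNA per cell cannot be told apart, and the part of these cells in the mesenchymal values was not tested.

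**Figure D3:**
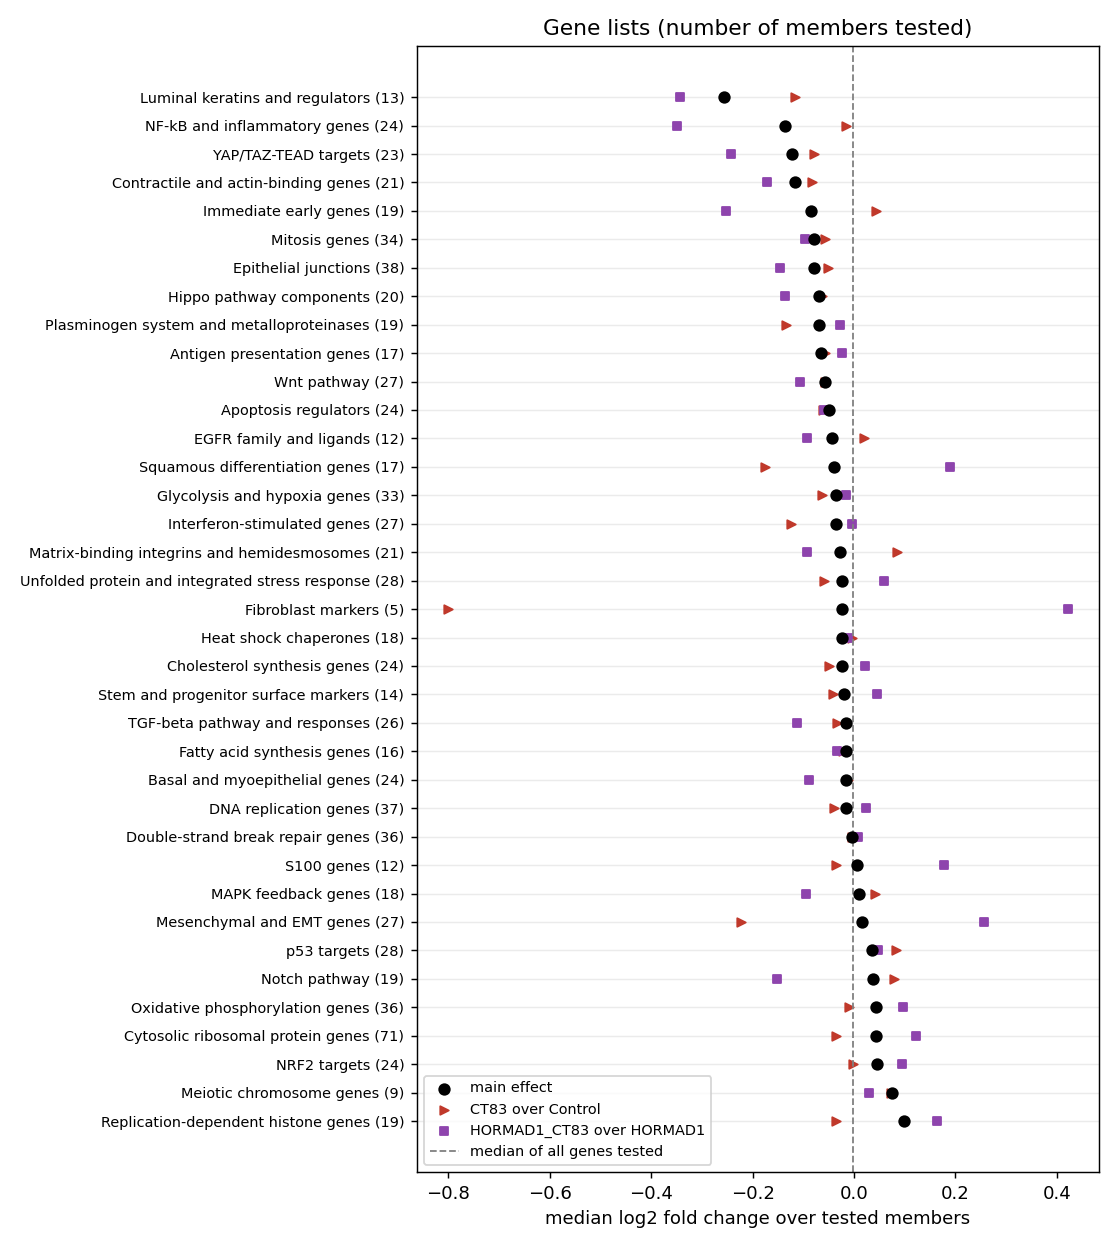
Median log2 fold change over the tested members of each list with at least 5 of them (number in parentheses), for the main effect (black), CT83 over Control (red triangles) and HORMAD1_CT83 over HORMAD1 (purple squares). The dashed line is the median of all genes tested, -0.001. Luminal genes have the lowest main-effect median, -0.26.

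**Figure D4:**
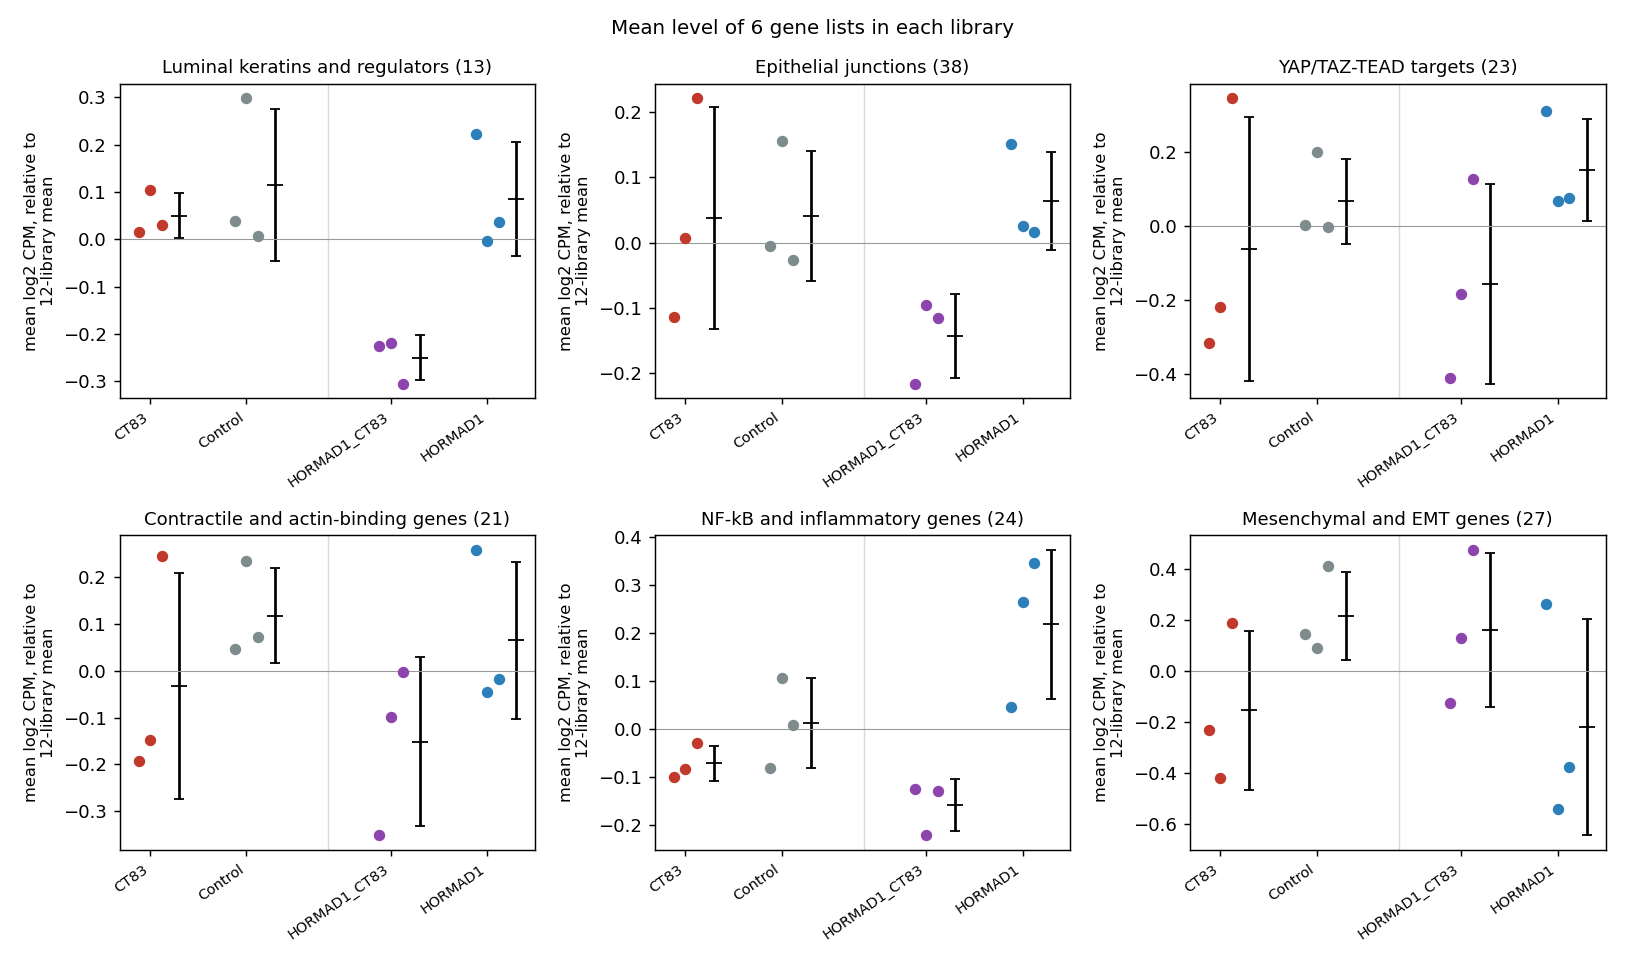
Mean log2 CPM of 6 lists in each library, relative to the mean of the 12 libraries; points are libraries and the mark beside them the mean with its SD (n = 3). For YAP/TAZ targets CT83 replicate 3 stands at 0.35, above the other CT83 libraries at -0.31 and -0.22. For luminal genes the HORMAD1_CT83 libraries stand at -0.23, -0.22 and -0.30. The CT83 libraries stand there at 0.02, 0.10 and 0.03, within the range of the Control libraries at 0.04, 0.30 and 0.006. For epithelial junctions the means of the CT83 and Control lines are 0.038 and 0.041, and that of the HORMAD1_CT83 line is -0.14.

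Some libraries of 1 line stood apart along transcript length. The slope of log2 CPM, relative to the mean of the 12 libraries, per doubling of transcript length was -0.0400, -0.0218 and 0.00436 in HORMAD1_CT83 libraries, -0.0100, -0.00207 and 0.0418 in CT83 libraries, 0.0430, -0.00869 and -0.0179 in HORMAD1 libraries and -0.00299, 0.0215 and -0.00712 in Control libraries. HORMAD1 replicate 1, CT83 replicate 3 and Control replicate 2 had the highest slopes, and HORMAD1_CT83 replicate 1 the lowest. The difference in slope between libraries with CT83 and without it was within the spread between libraries (two-sided exact permutation test within HORMAD1 background, p = 0.56, where the smallest possible is 0.005, and 0.672 adjusted over 6 values per library). MKI67, a proliferation marker, varied several-fold within the CT83, HORMAD1 and Control lines, at 17.5, 34.02 and 27.99 CPM in HORMAD1_CT83 libraries, 31.8, 104 and 242 CPM in CT83 libraries, 202, 13.02 and 17.5 CPM in HORMAD1 libraries and 23.6, 136 and 19.5 CPM in Control libraries.

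**Figure D5:**
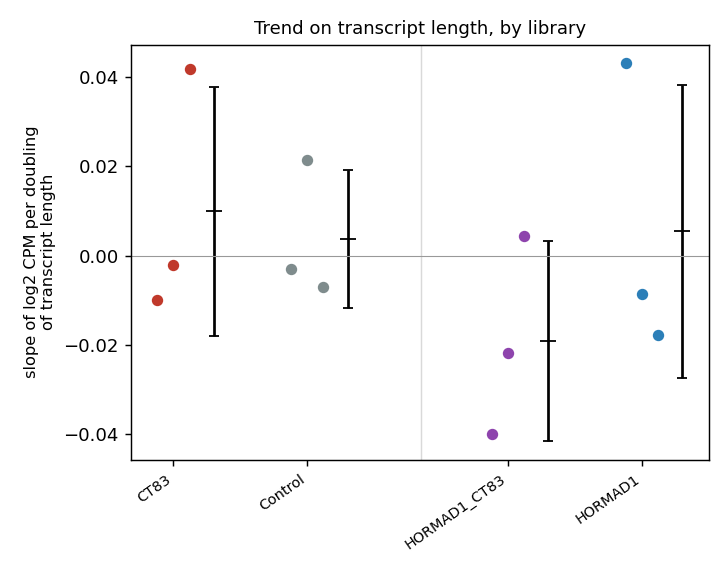
Slope of log2 CPM, relative to the 12-library mean, on log2 transcript length in each library; points are libraries and the mark beside them the mean with its SD (n = 3). CT83 replicate 3 at 0.0418 and HORMAD1 replicate 1 at 0.0430 stand above the other libraries.

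The count of called genes turned on these libraries. With the 3 of highest slope left out, the same test on 9 libraries called 331 genes higher (2.11%) and 430 lower (2.74%) of 15667 tested, and the 5 genes called over 12 libraries were among them. The median size of the log2 fold changes of these 761 genes was 0.32. Of them, 750 had 1 sign in both backgrounds, which a call on the average of the 2 contrasts favours by itself. Over 12 libraries, 96.6% of genes at an unadjusted p under 0.05 by edgeR also had 1 sign, where 45.6% of all genes did. Over all genes tested in the 9 libraries 61.9% had 1 sign in both backgrounds. HORMAD1_CT83 replicate 1, nearly as steep in the other direction, was kept there. Without it as well, 1182 of 15597 genes tested were called over 8 libraries, 738 of them also called over 9. The 8 libraries are part of the 9, so this overlap is no separate support. The libraries left out were picked on a trend seen in the same data, and the 9-library fit keeps 5 residual degrees of freedom. The common dispersion, the estimated spread between libraries of a line, was 0.0192 over 12 libraries and 0.0055 over 9. The small SE and p of the 9-library fit thus rest in part on the choice of libraries. Its calls describe the 9 libraries and are not offered as the result of the comparison.

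Within those 9 libraries, CD24 fell by 0.55 on the log2 scale (SE 0.05, adjusted p = 5.12e-07 by edgeR), KRT8 by 0.36 (adjusted p = 0.000123), KRT18 by 0.29 and CDH1 by 0.35 (adjusted p = 9.33e-05). Of the genes named in this paragraph, only CT83 and C15orf48 passed the main-effect test over all 12 libraries. OCLN fell by 0.50 and CLDN4 by 0.46. Over all 15667 genes tested there, 2.74% were called lower and 2.11% higher. Of the 14 luminal genes 3 fell and 0 rose, and of 38 junction genes 9 fell and 0 rose. TAGLN fell by 1.11 (adjusted p = 0.000172) and MYL9 by 0.65, and 6 of 21 contractile genes fell with none higher. PTGS2 fell by 0.85, IL32 by 0.65 and TNFAIP3 by 0.35, and 6 of 24 NF-kB and inflammatory genes fell. The median of that list was 0.04 without HORMAD1 and -0.30 with it. Of 23 YAP/TAZ targets 5 fell. Of 24 basal and myoepithelial genes 5 fell, KRT17 among them, and 2 rose. Of 19 plasminogen system and metalloproteinase genes 5 fell and 2 rose, and of 18 heat shock chaperones 4 fell and 1 rose. KRT15 rose by 0.39, PHGDH, the first enzyme of serine synthesis, by 0.48 (adjusted p = 3.7e-06), TIMP1, an inhibitor of metalloproteinases, by 0.39, ITGA3, an integrin subunit that binds laminin, by 0.26, and AKR1C1 by 0.64. Of the 23 genes named by rule besides CT83, 22 passed, all but PDPN. These genes were chosen for small p and no overlap over the 12 libraries that include these 9. Their passing is thus no separate support. The difference between the 2 backgrounds was called for 22 genes there, among them C15orf48 (adjusted p = 0.0450), CLDN4 (0.0212) and BIRC3 (0.0115), for which the log2 fold change was 0.15 without HORMAD1 and -0.63 with it. The 6 fibroblast markers tested there had a median of -1.58 without HORMAD1 and 1.57 with it, and their part in these calls was not tested.

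On the X chromosome, CT83 lies at 116461682 to 116463003 on the minus strand. Of 23 annotated entries within 1 Mb of it, 3 were tested, PLS3, PLS3-AS1 and DANT2, with log2 fold changes of -0.0027, 0.08 and -0.0079 and an adjusted p of 0.999 each by edgeR.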

How the data were processed

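The deposited values were expected counts, estimated counts that need not be whole, for 61533 gene entries per library. The labels' protocols name RNeasy purification, ERCC spike-ins and the NEBNext Ultra kit. The submitters' processing notes list Trimmomatic 0.39 and STAR 2.7.5c beside Picard and SAMtools, and both hg38 and hg19, with no role for either. For the counting tool, the annotation and the strand setting, the sources used here give nothing. Spike-in scaling was not possible, with 0 ERCC entries in the files.

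The expected counts were rounded, which changed 6.75% of values by at most 0.5; the planned test on raw counts was kept on the rounded values. Of the entries, 58312 are in GENCODE 29, whose GRCh38 coordinates and transcript lengths were used, and 61415 matched a symbol. In R 4.3.3 with edgeR 4.0.16, genes were kept by filterByExpr at a minimum count of 10 (15616 genes), scaled by TMM and fitted with 1 mean per line, robust dispersions, leaving 8 residual degrees of freedom. The call threshold was a Benjamini-Hochberg adjusted p of 0.05. CPM of each library in lists used a prior count of 2. A floor of 3 counts stood for 0. For the edgeR fits, SE was the size of the log2 fold change divided by the square root of the test's F statistic. The interval was 1.96 SE to each side, from the normal distribution. It is thus narrower than one taken with the test's own degrees of freedom. Intervals, SE and floors cover counting error and the spread between libraries only. No column lacked a sample.

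Genes were named by rule: the transgenes, every called gene, up to 12 higher and 12 lower genes with a symbol, the smallest p, mean log2 CPM at or over 1 and no overlap in either background, the 3 members of each list with the smallest p, and a set of marker genes. Of the higher genes, 1 is not reported here. The members, lists, genes and the 3 libraries left out together were chosen with earlier results of these data known. On simulated counts (15448 genes) the test recovered 76.1%, 97% and 100% of genes changed 1.5-, 2- and 4-fold, with 7 false calls. With no change simulated it called 0 of 15423. The changed genes were drawn only from those with a mean log2 CPM over 2. The recovery thus does not cover genes of lower level, such as CPVL at 1.33. Whether this recovery and these false calls carry over to the 12 libraries, whose slopes on transcript length differ, was not tested. No 2 libraries of a line agreed within sampling noise (chi-square per degree of freedom 2.54 to 26.4). Same-numbered libraries of different lines did not deviate together (6 of 18 pairs over 0.1, from -0.35 to 0.35). Alternatives were other scaling and filters, DESeq2 1.42.0, limma-voom (limma 3.58.1), an adjusted p under 0.01, no robust dispersions, an additive model, a replicate block, a length and GC offset, fits of 1 background, and leaving out libraries.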

Additional observations from a re-analysis of the deposited data

Results flagged for a closer look

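Of 52 sets of 6 libraries examined for the named genes (a side of the comparison per gene), 2 held a library whose gap to the nearest other, divided by the range of the 6, was above 0.625; chance gives about 1 in 20 such sets. SEC22B had 168 CPM in HORMAD1_CT83 replicate 1, above the other 5 libraries with CT83 at 129 to 142 CPM. CA12 had 25.9 CPM in HORMAD1_CT83 replicate 3, below the other 5 libraries with CT83 at 31.2 to 32.0 CPM.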

How the results depend on the processing

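The counts of called genes were 1 higher and 4 lower in the main effect, 1 without HORMAD1, 7 with HORMAD1 and 0 for the interaction, and 121 genes were apart in both backgrounds. They stayed within 1.5 times of these values under the other scalings and the stricter filter, and so did the counts of called genes with no robust dispersions and with the length and GC offset, where genes apart were not counted anew. With no filter on low counts they were 21, 39, 0, 99 and 2. DESeq2 called 9 higher and 23 lower, 62 with HORMAD1 and 3 for the interaction. Limma-voom called 4 with HORMAD1 and lost C15orf48 (adjusted p = 0.0611). At an adjusted p under 0.01, 0 lower genes were called in the main effect and 0 in either background. With the replicate number as a block, 2 genes were called lower (ENSG00000259342.1 and IGFBP3) and 1 with HORMAD1; CPVL had an adjusted p of 0.0501, and the numbers do not pair the libraries. The additive model called 1 lower. Fits of only 6 libraries called 0 without HORMAD1 and 1 with it. Dropping Control replicate 2, CT83 replicate 3 and HORMAD1 replicate 1 together, chosen for their slope on length, gave 331, 430, 119, 339, 22 and 1867, the last of which rises by construction with fewer libraries. Added after the data were seen, these 9 libraries with the length and GC offset gave 348, 558, 151, 374 and 24, leaving out HORMAD1_CT83 replicate 1 as well gave 586, 596, 503, 469 and 92, and leaving both transgenes out of the table gave 0 higher and 0 without HORMAD1. Leaving out 1 library at a time gave 0 to 35 higher, 0 to 62 lower, 0 to 1 without HORMAD1, 0 to 39 with HORMAD1, 0 for the interaction, and 156 to 549 apart in both backgrounds. The 35 and 62 came without HORMAD1 replicate 1, and 3 and 16 without CT83 replicate 3, while without Control replicate 2, CT83 replicate 1 or HORMAD1_CT83 replicate 3 no lower gene was called. The cause of these shifts was not tested. For the 22 named genes that were not called but apart in both backgrounds, 616 values under alternatives held 0 changes of sign, and 102 passed the threshold. These genes were chosen for their lack of overlap in the same libraries. Their constant sign was thus all but fixed by that choice and is no separate support. The main-effect medians of luminal, junction, YAP/TAZ, Hippo, contractile, NF-kB, mitosis, ribosomal protein, oxidative phosphorylation and NRF2 lists kept their sign in all 27 settings. The sign changed for mesenchymal genes in 4, immediate early genes in 1 and basal genes in 7. Over 12 libraries the ribosomal protein, oxidative phosphorylation and NRF2 medians were below 0 without HORMAD1 and above 0 with it. Their constant sign is thus that of the average alone. Sizes moved more: the contractile median ran from -0.207 to -0.0058, the luminal from -0.278 to -0.106, the YAP/TAZ from -0.240 to -0.066, the ribosomal protein from 0.0051 to 0.0837 and the oxidative phosphorylation from 0.0104 to 0.0820. The depth limits the 4 lower called genes, which stood at 6 to 166 counts per library, and a median SE of 0.11 on the log2 scale limits the main effect of all genes.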
